A study of Mus musculus with 21 samples.

Results

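A set of 617 domains of monoubiquitinated histone H2B (H2Bub1) in mouse embryonic stem (ES) cells was listed in 3 states of the cells and in neither state with Fbxl19 knocked down. The set came from the 2937 domains of the ES list. Of these, 2561 were longer than 2000 bp, and 2401 of them (93.8%) overlapped a domain of the list from ES cells that overexpress Fbxl19 by at least 1 bp. A domain of the list from differentiated cells was overlapped by 2026 (79.1%), and 2008 overlapped both lists. From those 2008, the 617 without overlap to a domain of either knockdown list were taken, or 30.7%, and they are called absent domains here. The 584 domains that were in both knockdown lists are called retained domains. A further 653 were only in the ES knockdown list and 154 only in the differentiated knockdown list.

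H2Bub1 is placed by the E3 ligase Rnf20, which works with Rnf40, and is removed by deubiquitinases of the SAGA complex. It is best known over the bodies of transcribed genes, where it follows elongating RNA polymerase, and in embryonic stem cells its level is known to increase as the cells differentiate. Fbxl19 belongs to the F-box family, and its CXXC finger recognises CpG that carries no methylation, as in the CpG islands of many promoters.

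All cells were of the J1 line, a pluripotent mouse ES cell line, and were profiled by chromatin immunoprecipitation and sequencing (ChIP-seq) after crosslinking with formaldehyde. H2Bub1 was precipitated with an antibody in 3 samples of ES cells without a modification given in the labels and in 2 samples of ES cells with Fbxl19 knocked down. It was also precipitated in 3 samples of a clone that overexpresses flag-biotin tagged Fbxl19 more than 5-fold (OE-high), in 2 samples of differentiated cells and in 2 samples of differentiated Fbxl19 knockdown cells. The lists of both differentiated groups are named for day 4. Tagged Fbxl19 was pulled down with streptavidin beads in 2 samples of the OE-high clone and in 2 samples of a clone with less than the endogenous level (OE-low). Rnf20 was pulled down with the same beads in 1 sample. The OE-low and Rnf20 cells contained BirA, a biotin ligase. Each overexpression level is a single clone. The labels do not say how knockdown and differentiation were brought about, and Fbxl19 levels in these cells were not analysed here.

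The data were 5 lists of H2Bub1 domains, 2 lists of Fbxl19 peaks and 1 list of Rnf20 peaks, all on the mm9 build. Each group has 1 list, and 7 of the 8 are combined over samples, so no spread between samples can be set against any difference. A domain counted as absent is one that has no call in a list, which is not a measurement of no H2Bub1, and in bulk samples fewer cells with the mark and less of it per cell cannot be told apart. The lists differed in size: 2937 domains in ES cells, 1813 in the knockdown, 7216 in OE-high, 5125 in differentiated and 1090 in differentiated knockdown cells. The number with suffix M in their track lines was 60, 46, 46, 36 and 41 in that order, what it counts is not stated, and depth per sample is unknown. How far the absence of a domain follows from the shorter knockdown lists was not tested. With each of the 5 lists held to its 1090 highest-scoring domains, 15 of 284 domains (5.28%) were absent from both knockdown lists. Of the 15, 5 were among the 617. Such a cut also leaves out ES domains of low score, where absence was most frequent. With the full lists the share absent from both was 9.56% in the highest quartile of ES score. The 5.28% therefore cannot separate list size from score. Intervals are exact Clopper-Pearson 95% intervals, cover counting error in the number of domains only, and treat domains as separate although neighbours may share a transcription unit.

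Absence was more frequent from the differentiated knockdown list than from the ES knockdown list. Over all 2561 ES domains longer than 2000 bp, 44.5% were absent from the ES knockdown list, 70.1% from the differentiated knockdown list and 38.0% from both. Among the 2008 domains, the shares were 38.4% (771 domains) and 63.2% (1270 domains). The 617 domains thus made up most of those missing from the ES knockdown list. These counts follow from how the set was chosen and carry no test.

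The absent domains were short and near the score threshold of the ES list. They covered 10.3 Mb of the 47.5 Mb in the 2008 domains. Their length had a median of 7400 bp (quartiles 4200 and 15800 bp, range 2200 to 455000 bp), against 15400 bp in retained domains. The authors' score per domain, which ranks domains within a list and lies above 7 in every line, had a median of 8.23 in absent and 11.0 in retained domains. Among absent domains, 278 (45.1%) were in the lowest quartile of score of the 2008, and 5 had a score above 15. Most were therefore domains of modest call strength in ES cells.

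Length and score each went with absence, and together they separated the domains further. The share absent from both knockdown lists was 55.4% in the lowest score quartile (score up to 8.03), 35.7% in the next (up to 9.38), 22.3% in the one above (up to 11.6) and 9.56% in the highest. By length it was 44.1% in domains of over 2 to 5 kb, 35.0% in those of 5 to 10 kb and 27.9% in those of 10 to 20 kb. It was 21.7% in those of 20 to 50 kb and 14.5% in those over 50 kb. The highest share was in domains of 5 to 10 kb in the lowest score quartile, with 63 of 87 absent (72.4%, interval 61.8 to 81.5). None of the 62 domains of 20 to 50 kb in the highest quartile was absent, which allows a share of up to 5.78%, and none of 27 over 50 kb, which allows up to 12.8%. The values are a description, since length and score come from the lists that chose the set.

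**Figure D1:**
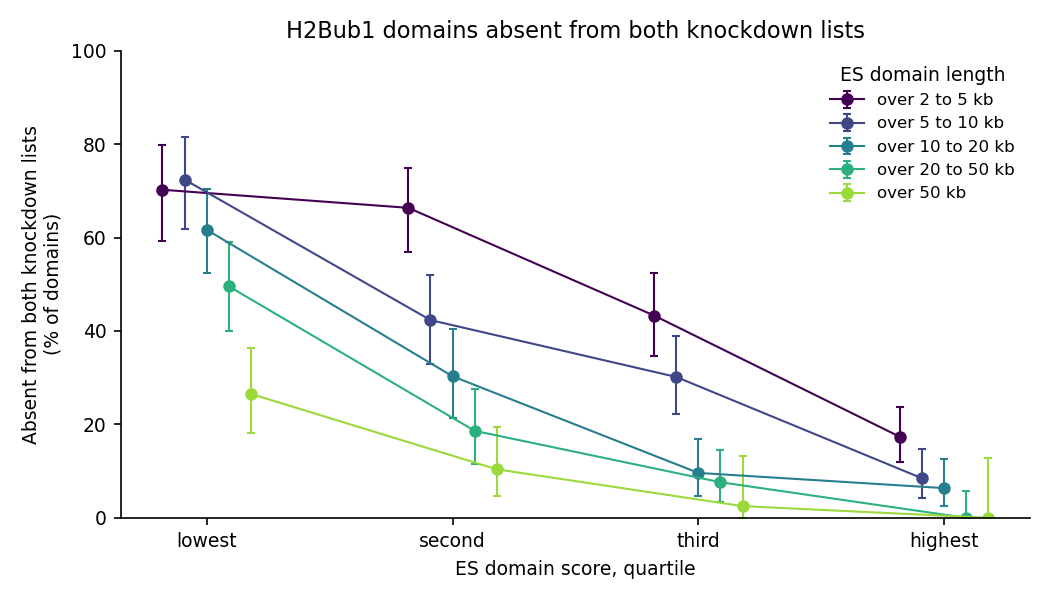
Share of the 2008 ES domains that was absent from both knockdown lists (y axis, %) by quartile of the ES domain score (x axis), with 1 line per class of ES domain length; points are shares and bars exact 95% Clopper-Pearson intervals. The share falls from 72.4% (5 to 10 kb, lowest quartile) to 0 of 62 domains (20 to 50 kb, highest quartile).

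In the 2 lists that hold them, the absent domains met domains that were mostly longer than their own. The OE-high domains that met an absent domain had a median length of 36800 bp, summed where there were several, and the median of their highest score was 13.7. For differentiated domains these were 27600 bp and 10.3. Retained domains met domains of similar length, 31800 bp in OE-high and 27400 bp in differentiated cells, but were themselves longer in ES cells. The median ratio of this length was 3.93 for OE-high over ES and 2.81 for differentiated over ES. It was 1.37 and 1.23 in retained domains and 1.92 and 1.58 in the 2008. Over whole lists the median domain had 7600 bp in ES, 21600 bp in OE-high and 19800 bp in differentiated cells. A short ES domain raises the ratio, and the lists that give it also chose the set. OE-high domains were longer for 546 absent domains (88.5%, against 80.9% of the 2008) and differentiated domains for 506 (82.0%, against 72.9%). Their OE-high score exceeded the ES score in 571, as it did in 88.3% of the 2008. OE-high domains covered 345 absent domains whole (55.9%) and differentiated domains covered 287 (46.5%), near the 52.7% and 43.8% of the 2008. Coverage was under 50% in 9 and 22. Lists of different size were scored separately. Scores given side by side for named domains therefore describe each list and do not measure a change in H2Bub1.

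The absent domains seldom shared an OE-high or a differentiated domain. They met 613 distinct OE-high domains, of which 23 held 2 or more of them and none more than 3, and 617 distinct differentiated domains. For 116 absent domains (18.8%) the OE-high domain also met another ES domain, near the 18.5% of the 2008. For 41 (6.65%) the OE-high domain met a domain of the ES knockdown list, and for 25 (4.05%) the differentiated domain met one of the differentiated knockdown list. Low values here follow in part from the choice of domains without overlap to those lists, and nothing is read from them.

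The nearest domain of a knockdown list usually lay more than 100 kb away. Overlap was excluded by the choice of the set, and the lists hold only 1813 and 1090 domains. No background gap was computed, so nothing is read from these distances. The gap to the ES knockdown list had a median of 307.8 kb (quartiles 100.2 and 935.2 kb) and reached 16.5 Mb. It was within 5 kb for 10 absent domains (1.62%) and within 100 kb for 154 (25%). The gap to the differentiated knockdown list had a median of 500.4 kb, and 105 (17.0%) lay within 100 kb. Among those closest to a knockdown domain were chr5:92852800-92855399, with 200 bp to an ES knockdown domain, and chr11:54356400-54359799 and chr1:162868800-162872999, each with 400 bp. An adjoining domain with a gap of 0 was found once, on chromosome 18. None of these 4 held a peak of Fbxl19 or Rnf20. Farthest from any knockdown domain was chrX:149932800-149935999, 9.26 Mb from the differentiated and 16.5 Mb from the ES knockdown list. It was followed by chr8:59963800-59997999 and chr13:119170400-119175999, both more than 4.7 Mb from either list, and each of these held an OE-high Fbxl19 peak.

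The 5 absent domains with the highest ES score were short, and each held an OE-high Fbxl19 peak near an end. The domain chr4:131864600-131866999 had a length of 2400 bp and a score of 25.2 in ES cells. It lay in a 45000-bp OE-high domain with a score of 13.6 and met a differentiated domain of 2200 bp with a score of 20.2. It was 123.6 kb from the nearest domain of the ES knockdown list and 96.4 kb from that of the differentiated knockdown list. It carried an Fbxl19 peak with a score of 9.33, whose summit was 30 bp from the left end of the domain, and an Rnf20 peak with a score of 211.6 in its interior. At chr7:116662600-116665999, the ES score was 23.1, the OE-high score 14.3 over 7000 bp and the differentiated score 15.6 over 5600 bp. The Fbxl19 summit there lay 189 bp from an end and an Rnf20 peak followed 930.0 bp from that end. Both regions with an Rnf20 peak among the 5 are thus the 2 with the highest score.

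The other 3 of these domains held Fbxl19 without Rnf20. The domain chr6:66984200-66987799 had a score of 18.4 in ES, 18.3 in OE-high and 12.3 in differentiated cells with almost the same ends in each, and its Fbxl19 summit was 422 bp inside an end. The domain chr16:30065400-30067599 had the same ends in the differentiated list as in the ES list, with scores of 15.0 and 17.2. It was one of the shortest in the set at 2200 bp, and held 2 Fbxl19 peaks, with summits 7 and 360.0 bp from its ends. At chr4:48482800-48486399 the 3600 bp of the ES domain (score 15.5) were the right-hand end of domains of 50600 bp in OE-high and 50400 bp in differentiated cells. The end shared by these 3 lists was at 48486399, and the Fbxl19 summit lay 92 bp from it.

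Of the 5 longest absent domains, 3 were covered by the OE-high and differentiated lists only over a small part of their length. The longest, chr17:6219200-6674199, had 455000 bp and a score of 8.19 in ES cells. It met 5 OE-high domains that covered 23.9% of it and 2 differentiated domains that covered 28.4%. It held 14 OE-high Fbxl19 peaks, 2 OE-low peaks and 5 Rnf20 peaks, more Fbxl19 peaks than any other absent domain. The nearest of its Fbxl19 summits to an end was still 37447 bp inside. On chromosome 14, chr14:7108800-7442399 was covered to 12% in OE-high and 10.6% in differentiated cells, and chr14:7732400-7941999 to 9.06% and 7.82%. The first of these met 3 domains in each list, and the second met 1 in each.

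The other 2 were covered over most of their length. The 197200 bp of chr15:76940200-77137399 lay in a single OE-high domain of 231200 bp and were covered to 98.4% by a differentiated domain, and all 3 lists shared the end at 77137399, with an Fbxl19 summit 20 bp from it. Its score was 7.01 in ES, 16.3 in OE-high and 9.76 in differentiated cells. The 176800 bp of chr10:5903400-6080199 were covered to 86.3% by 2 OE-high domains and to 80.4% by 3 differentiated domains, and held 6 OE-high Fbxl19 and 5 Rnf20 peaks. Another 2 domains held 6 OE-high Fbxl19 peaks: chr2:152219400-152240599, with 2 OE-low and 2 Rnf20 peaks in 21200 bp, and chr5:65188200-65225599, with 1 OE-low and 2 Rnf20 peaks in 37400 bp.

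Fbxl19 and Rnf20 peaks did not enter the choice of the set and were compared between classes of domain. The Fbxl19 peaks were taken from the OE-high clone, which also supplied a criterion list, so they show where tagged Fbxl19 can bind and not its binding at the endogenous level. Of the absent domains, 434 held an OE-high Fbxl19 peak (70.3%, interval 66.6 to 73.9), against 77.0% of the 2008 domains. The share was 77.2% in domains kept only in the ES knockdown list, 79.9% in those kept only in the differentiated knockdown list and 83.0% (interval 79.8 to 86.0) in retained domains. Absent minus retained was -12.7 percentage points (interval -17.5 to -7.84). So most absent domains held Fbxl19, and they held it less often than each class that a knockdown list kept.

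OE-low peaks gave a similar order at a lower level, from a list of 2213 peaks against 13669 in the OE-high list. They lay in 69 absent domains (11.2%, interval 8.81 to 13.9), against 17.5% of the 2008. The share was 17.8%, 22.7% and 22.4% in the other 3 classes in the same order, and absent minus retained was -11.2 points (interval -15.6 to -6.93). Of the 69, all but 1 also held an OE-high peak.

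Rnf20, the ligase, was the less frequent of the pair and showed the wider gap. Its list held 8606 peaks, fewer than the OE-high Fbxl19 list, so the levels do not compare occupancy. An Rnf20 peak lay in 183 absent domains (29.7%, interval 26.1 to 33.4), against 41.4% of the 2008. The share was 42.9% in domains kept in the ES knockdown only, 53.9% in those kept in the differentiated knockdown only and 48.8% (interval 44.7 to 52.9) in retained domains. Absent minus retained was -19.1 points (interval -24.6 to -13.5). The Rnf20 list comes from 1 library, so nothing is known of its spread between samples.

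**Figure D2:**
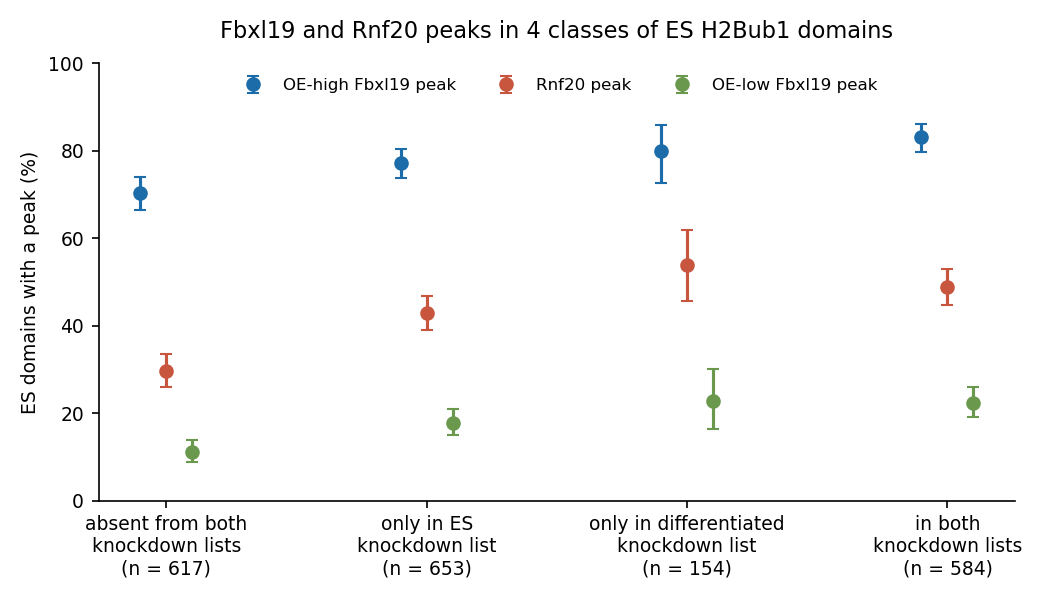
Share of ES domains with a peak (y axis, %) in the 4 classes of the 2008 domains by presence in the knockdown lists (x axis), for OE-high Fbxl19, Rnf20 and OE-low Fbxl19 peaks; points are shares and bars exact 95% Clopper-Pearson intervals. For each kind of peak the absent domains have the lowest share, 70.3%, 29.7% and 11.2%.

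These gaps depended on how the classes were made up in length and score. Within length classes, the Fbxl19 share in absent and retained domains was 59.4% and 68.6% at 2 to 5 kb, 67.9% and 76.9% at 5 to 10 kb, 77.7% and 80.6% at 10 to 20 kb. It was 85.5% and 91.6% at 20 to 50 kb, and 88.6% and 95.9% above. For Rnf20 the pairs were 20.5% and 38.2%, 30.2% and 38.9%, 28.1% and 42.5%, 41.0% and 60.8%, and 62.9% and 61.9%. The Fbxl19 share was thus lower in absent domains at all 5 lengths and the Rnf20 share at 4 of 5. Single intervals overlapped in each length class for Fbxl19, and did not for Rnf20 at 2 to 5 kb and, barely, at 20 to 50 kb.

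**Figure D3:**
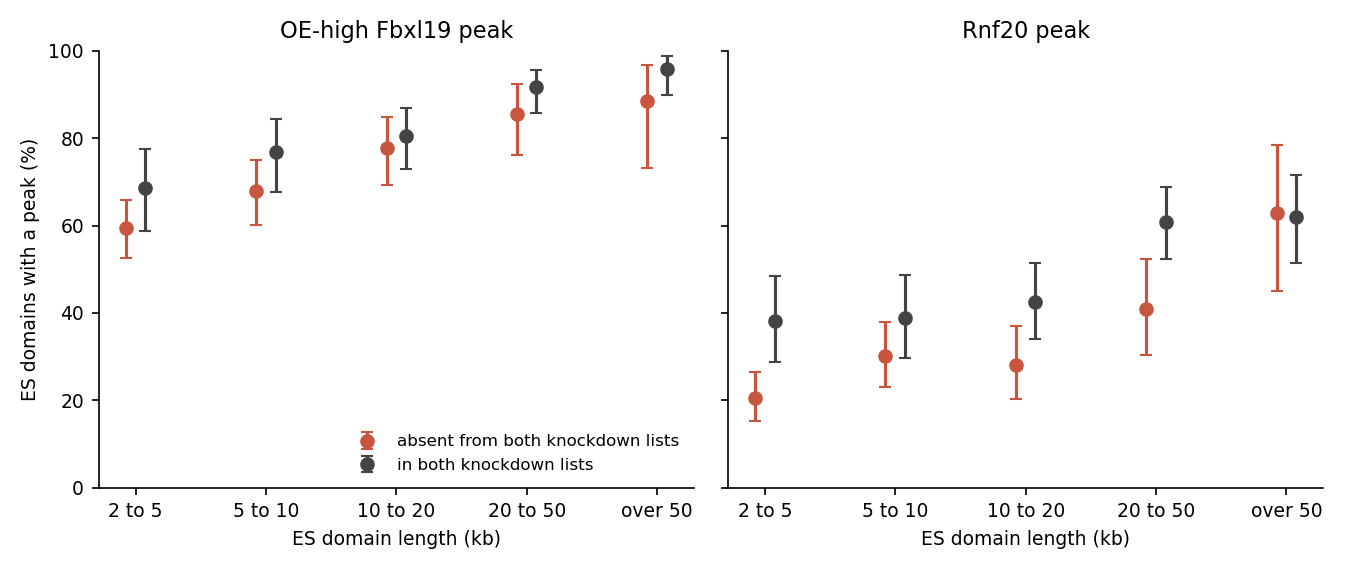
Share of absent and retained domains with an OE-high Fbxl19 peak (left) or an Rnf20 peak (right) (y axis, %) by ES domain length (x axis, kb); points are shares and bars exact 95% Clopper-Pearson intervals. The Fbxl19 share rises with length in both classes, from 59.4% to 88.6% in absent domains, and the Rnf20 share of absent domains is below that of retained domains except over 50 kb.

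With retained domains weighted to the absent domains' length classes, the difference was -7.39 points for Fbxl19 and -14.0 for Rnf20, and weighted to their score quartiles it was -5.75 and -14.2. Weighted to length class and score quartile together, it turned to 12.7 and 2.71 points. That value rests on thin groups, since 7 of the 18 combinations, with 429 of the absent domains, held under 20 retained domains each. Restricted to the 4 combinations with at least 20 domains of each class, which hold 124 absent domains, it was 0.394 for Fbxl19 and -5.05 for Rnf20. Against domains kept in any knockdown list, where 11 combinations with 553 absent domains reach 20 of each, it was 6.01 (standard error 2.90) for Fbxl19 and -1.99 (standard error 2.66) for Rnf20, where the unweighted differences were -9.60 and -16.9. These standard errors are binomial, cover counting error in the number of domains only and treat domains as separate. They measure no spread between samples. A lower share of Fbxl19 or Rnf20 in absent domains than in kept domains of like length and score was therefore not shown.

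Fbxl19 and Rnf20 met in the same absent domain less often than in retained domains. Both were present in 162 absent domains (26.3%), against 37.7% of the 2008 and 45.7% of retained domains. Fbxl19 without Rnf20 was the larger group, with 272 absent domains (44.1%), against 39.3% of the 2008 and 37.3% of retained domains, a difference of 6.76 points (interval 1.08 to 12.4). Rnf20 without OE-high Fbxl19 was found in 21 (3.40%), close to the 3.08% of retained domains. Given an OE-high Fbxl19 peak, 37.3% of absent domains (interval 32.8 to 42.1) and 55.1% of retained domains (interval 50.5 to 59.5) also held Rnf20. Given an Rnf20 peak, 88.5% and 93.7% also held Fbxl19. These pairs were not weighted for length and score.

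No peak of either protein was found in 161 absent domains (26.1%), against 19.2% of the 2008 and 13.7% of retained domains. They were the shortest group, with a median length of 5000 bp, whereas the 39 absent domains with all 3 kinds of peak (6.32%, against 11.7% of the 2008 and 15.4% of retained domains) had a median of 22800 bp. The highest-scoring without a peak were chr16:17619400-17621799 (score 13.7), chr17:24607200-24610199 (12.2) and chr11:100384400-100389199 (11.9). Each lay in an OE-high domain of 20600 to 73600 bp. At chr16:17619400-17621799 the domains of ES, OE-high and differentiated cells began at the same position and the last 2 were longer. Of the 183 absent domains without an OE-high Fbxl19 peak, 72 (39.3%) had one elsewhere in the OE-high domain they met, against 24 of 99 retained domains (24.2%). Their median gap to the next OE-high Fbxl19 peak was 29212 bp, and 27 of them (14.8%) had one within 5 kb. In the 99 retained domains without a peak, the median gap was 35735 bp and 8 (8.08%) had one within 5 kb. OE-high domains exceeded absent domains in length more than retained ones (median ratios 3.93 and 1.37 over each class). That leaves more of the OE-high domain outside to hold a peak, so the 39.3% and 24.2% were not compared further.

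Absent domains that held Fbxl19 mostly held a single peak. Exactly 1 OE-high peak lay in 352 (57.1%), 2 in 54 and 3 or more in 28. Thus 82 (13.3%) had 2 or more, against 20.8% of the 2008 and 25.3% of the longer retained domains. Per length the order was reversed, with 0.565 OE-high Fbxl19 peaks per 10 kb of absent domain and 0.486 per 10 kb of retained domain. OE-low peaks (0.0780 and 0.0980 per 10 kb) and Rnf20 peaks (0.254 and 0.366) were sparser in absent domains per length as well. Peaks per length fall with domain length where a domain has 1 peak, so these densities were not compared further.

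Fbxl19 peak scores were close in absent and retained domains, and Rnf20 peak scores were lower in absent than in retained ones. The top OE-high Fbxl19 score per domain had a median of 11.8 in absent domains with a peak (quartiles 9.47 and 14.5) and 12.2 in retained domains (9.68 and 15.2). Of the 579 OE-high Fbxl19 peaks in absent domains, 321 (55.4%) scored above the median of the whole list. The top Rnf20 score had a median of 76.1 and of 96.0, with quartiles of 59.5 and 109.7 against 66.1 and 157.8. A top score can rise with the number of peaks in a domain. Over single Rnf20 peaks the median was 72.4 in absent and 84.2 in retained domains. It was 73.5 in domains kept in the ES knockdown only, close to absent domains, and 91.2 in those kept in the differentiated knockdown only. An Rnf20 peak was overlapped by 173 of the 579 (29.9%, interval 26.2 to 33.8), against 39.0% in retained domains (interval 35.7 to 42.4). In the other direction 177 of the 260 Rnf20 peaks in absent domains met OE-high Fbxl19 (68.1%, interval 62.0 to 73.7), against 56.5% in retained domains (interval 52.4 to 60.4). This share was 60.0% in domains kept in the ES knockdown only. It was 65.1% (interval 57.4 to 72.2) in those kept in the differentiated knockdown only, close to absent domains. None of these values was weighted for length and score.

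Among the 39 absent domains with all 3 kinds of peak, the 5 with the strongest Fbxl19 peak had different layouts. The strongest lay in chr14:55186800-55196599, a domain of 9800 bp with a score of 12.8 in ES, 11.6 in OE-high and 20.9 in differentiated cells. Its OE-high Fbxl19 peak with a score of 47.7, the highest in the set, had its summit 1996 bp inside the domain, and the OE-low and Rnf20 peaks overlapped it. A second Fbxl19 peak (score 17.3) sat 176 bp from the same end. In chr8:23969800-24015799, a domain of 46000 bp, the summits or midpoints of the 3 peaks all lay within 164 bp of the left end, with scores of 29.8 for OE-high Fbxl19, 11.0 for OE-low Fbxl19 and 289.5 for Rnf20. In chr1:13572400-13579999 they likewise lay within 97 bp of the right end, which was also the end of the OE-high and the differentiated domain.

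The other 2 held several Fbxl19 peaks each. In chr6:136751400-136777799, an OE-high Fbxl19 peak (score 25.6), one of OE-low and 1 of Rnf20 with a score of 859.6 overlapped near the left end, and another 3 OE-high Fbxl19 peaks were spread over the 26400 bp. In chr14:99698000-99745999 there were 5 OE-high and 4 OE-low Fbxl19 peaks and 1 Rnf20 peak in 48000 bp. The OE-high and differentiated domains there both ran from 99698000 to 99715799 and covered 37.1% of the ES domain, with scores of 35.7 and 12.2. The ES domain had a score of 9.76, and no knockdown domain lay within 3.7 Mb.

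Fbxl19 summits of absent domains were concentrated at the domain ends. An OE-high summit lay within 1 kb of an end in 351 (56.9%, interval 52.9 to 60.8), against 61.3% of the 2008. The share was 60.0%, 61.7% and 67.1% in domains kept in the ES knockdown only, in the differentiated knockdown only and in both. Absent minus retained was -10.2 points (interval -15.8 to -4.63). Against the other classes it was -3.14 (interval -8.66 to 2.39) and -4.80 (interval -13.5 to 4.27). From the lowest to the highest score quartile, absent and retained shares were 49.3% and 43.1%, 52.0% and 62.6%, 77.7% and 68.3%, 70.8% and 73.7%. The order thus changed with score, and the differences were not weighted for length and score. Both ends had a summit in 11 absent domains (1.78%). The others had it at a single end, the left in 156 and the right in 184 domains. In domains over 10 kb, where the ends are a smaller part, the share was 57.7% in absent and 67.4% in retained domains. It was 57.8% in domains kept in the ES knockdown only, as in absent domains, and 67.7% in those kept in the differentiated knockdown only.

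The profile around the ends was narrow for both proteins. In the first 500 bp inside an end there were 15.6 OE-high Fbxl19 summits per 100 ends of absent domains and 18.7 per 100 ends of retained domains, and in the 500 bp outside 6.48 and 11.3. Further inside the order was the other way, with 6.97 and 4.97 at 500 to 1000 bp, 3.02 and 2.58 at 1000 to 1500 bp and 3.04 and 1.89 at 1500 to 2000 bp. Absent domains thus had the higher counts from 500 to 2000 bp inside an end. Beyond that the order varied, with 1.09 and 2.05 at 2000 to 2500 bp and 1.53 and 0.561 at 3000 to 3500 bp. At 5 to 10 kb from the end, counts per 100 ends and 500 bp were 0.616 outside and 0.967 inside for absent domains, and 0.736 and 1.29 for retained domains. Midpoints of Rnf20 peaks numbered 5.19 per 100 ends in the first 500 bp of absent and 10.5 of retained domains. An Rnf20 midpoint lay within 1 kb of an end in 130 absent domains (21.1%, interval 17.9 to 24.5), against 28.9% of the 2008 and 35.3% of retained domains. The profiles were not weighted for length and score.

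**Figure D4:**
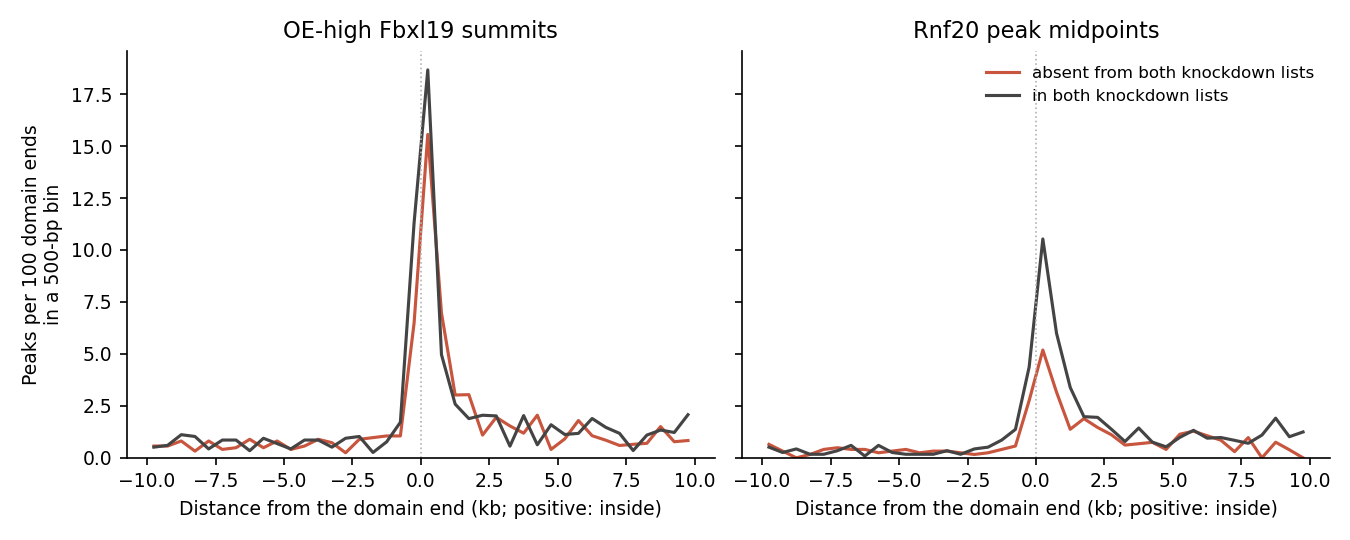
Number of OE-high Fbxl19 summits (left) and Rnf20 peak midpoints (right) per 100 domain ends in bins of 500 bp (y axis) by distance from the domain end (x axis, kb, positive inside the domain), for absent and retained domains; bins inside count only domains long enough to hold them. Both proteins peak in the first 500 bp inside the end, with 15.6 and 18.7 Fbxl19 summits and 5.19 and 10.5 Rnf20 midpoints per 100 ends.

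Chromosomes differed in the share of domains that were absent. Over the 19 autosomes the share had a median of 33.3%. It was lowest on chromosome 1 (40 of 258, 15.5%, interval 11.3 to 20.5), on chromosome 11 (57 of 312, 18.3%, interval 14.1 to 23.0) and on chromosome 17 (20.6%, interval 13.9 to 28.8). The highest shares were on chromosome 14 (43 of 87, 49.4%, interval 38.5 to 60.4), chromosome 4 (77 of 179, 43.0%, interval 35.7 to 50.6) and chromosome 9 (42.3%, interval 33.9 to 51.1). The intervals of the first 3 did not overlap those of the last 3. Chromosome X had 4 of the 2008 domains and 2 absent ones. These chromosomes were picked by their values, from lists that chose the set, and a cause was not tested.

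**Figure D5:**
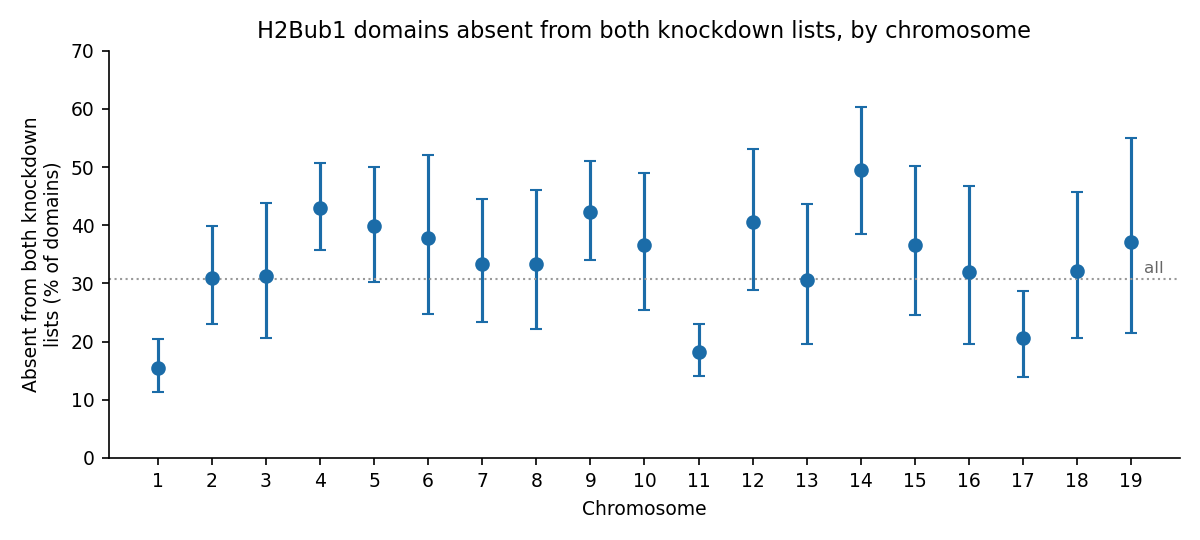
Share of the 2008 ES domains that was absent from both knockdown lists (y axis, %) on each autosome (x axis); points are shares, bars exact 95% Clopper-Pearson intervals and the dotted line the share over all chromosomes, 30.7%. Chromosomes 1, 11 and 17 lie lowest, at 15.5%, 18.3% and 20.6%, and chromosome 14 highest at 49.4%.

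The peaks in absent domains also varied by chromosome. The share with an OE-high Fbxl19 peak ran from 56.1% on chromosome 11 to 83.7% on chromosome 14, and the share with Rnf20 from 5% on chromosome 1 (2 of 40 domains) to 53.8% on chromosome 19 (7 of 13). The Fbxl19 share was lower in absent than in retained domains on 14 of the 19 autosomes, and the Rnf20 share on 18 of 19. With retained domains weighted to the chromosomes of the absent ones, the differences were -12.1 and -22.3 points. None of these values was weighted for length and score. With that weighting over all chromosomes the differences were 12.7 and 2.71 points, on thin groups. Retained domains were few on some autosomes, with 8 on chromosome 19.

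Absent domains often came in neighbouring order among the 2008. Of 611 absent domains with a following domain on the chromosome, 228 (37.3%) were followed by another absent one, against 383 of the 1377 others (27.8%). They formed 389 runs, of which 254 were single domains and 18 held 4 or more, with 90 domains in all. The longest run, of 7 domains with scores of 7.36 to 9.51, spanned 2.30 Mb at chr1:138593000-140889999, where 3 held an OE-high Fbxl19 peak and none Rnf20. Within it, chr1:140879600-140882799, chr1:140884400-140886799 and chr1:140887400-140889999 had the same OE-high score (11.9) and the same differentiated score (9.76). The most compact of the runs of 6 spanned 0.471 Mb at chr4:131864600-132335999, began with the highest-scoring absent domain and held Fbxl19 in 5 and Rnf20 in 3. Shares that differ between chromosomes also bring absent domains side by side. So do absent domains that lie in the same larger domain, as 23 OE-high and 21 differentiated domains held 2 or more. Neither part was separated.

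The limit of 2000 bp ran through a continuous range of lengths. Domain ends lie on a grid of 200 bp, 19 absent domains had the shortest possible length of 2200 bp and 9 domains of exactly 2000 bp met all other criteria, among 85 that were too short. Just inside were chr11:115997800-115999999 (score 11.6) and chr1:7078400-7080599 (11.1), which lay in OE-high domains of 7600 and 81800 bp. Just outside were chr11:70816200-70818199 (11.3), chr4:82968200-82970199 (10) and chr6:50515000-50516999 (8.57), in OE-high domains of 79400, 103600 and 4200 bp. Each of these 5 held 1 OE-high Fbxl19 peak, with a summit at most 674 bp from an end.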

How the data were processed

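ChIP-seq lists of 8 groups were used. BWA 0.5.9-r16, MACS and mm9 are named in the submitters' processing notes, with no role for each list. Per the file headers, the track lines of the H2Bub1 lists end in BCP, a caller of broad domains. The authors' deposited score per domain or peak, with no formula stated in the labels or headers, was used to rank within a list, and the deposited domain length to set the minimum of 2000 bp. Positions were taken to start at 1 in both Fbxl19 lists and at 0 in the others, and are given from 1. The OE-high Fbxl19 list was assigned from its name and the titles, because the description of those samples gives the H2Bub1 list. Whether all 3 OE-high H2Bub1 samples entered the combined list is unknown, since 1 of them names none.

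Lists were overlapped at 1 bp or more. Shares carry exact Clopper-Pearson intervals, and the interval of a difference adds both in squares. No test over samples was possible, and no p-value was computed. Peak summits (Fbxl19) and midpoints (Rnf20) were set against domain ends within 1 kb. Alternatives changed the length minimum, the overlap, the distance, the list sizes, the peak list, the chromosomes and the weighting. Domains named are the 5 with the highest score, the 5 longest, the 5 with all 3 kinds of peak and the strongest Fbxl19 peak, the 3 shortest and 3 just under the length minimum, the 3 closest to and 3 farthest from a knockdown domain, the 3 with the most Fbxl19 peaks and the 3 highest-scoring without a peak. Ties in the number of peaks and in the gap were broken by score, and the 1 tied domain left out in each case is named too. The 3 shortest were the highest-scoring of the 19 absent domains of 2200 bp. Runs were chosen after their values were seen. The set, the lists and the comparisons were chosen with earlier results of these data known. Gene names and sequences were not used here, since the lists are on mm9 and the reference tables on another build, so the gene lists and cell markers planned for that case were not applied. Inputs were not analysed here. Python 3.11.15, NumPy 2.4.6, pandas 2.3.3, SciPy 1.17.1 and matplotlib 3.10.9 were used. The code for classes and overlaps, tested on simulated data of 1200 domains, recovered 100% of classes and peaks.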

Additional observations from a re-analysis of the deposited data

How the results depend on the processing

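The number of absent domains was 398 with a length over 5000 bp, 261 among as many of the highest-scoring ES domains as the knockdown list holds, and 15 with all 5 lists at the size of the smallest, against 617. The share with an OE-high Fbxl19 peak was 76.4% over 5000 bp, 76.6% among the highest-scoring domains, 63.5% with 50% of the peak in the domain and 43.6% with the top 50% of peaks. For OE-low it was 14.1% over 5000 bp and 6.65% with the top 50%, and for Rnf20 34.7% and 19.4%. The share with a summit near an end was 68.2% among the highest-scoring domains, 43.1% within 500 bp and 66.1% within 2 kb. The Fbxl19 difference was -7.39 weighted by length, -5.75 by score, 12.7 by both, 0.394 by both in combinations of at least 20 domains and 4.70 at equal list size. The Rnf20 difference was 2.71, -5.05 and 2.61 in the last 3. Weighting by both, its restriction, weighting by chromosome and lists of the same size were added after the data were seen. In the lists of the same size the difference rests on 15 absent domains. The cause of these changes was not tested. The other 40 of 62 alternative values kept direction and changed less, though not all stayed close. Among them, the Fbxl19 difference was -8.35 with the highest-scoring domains, against -12.7. The Rnf20 difference was -14.0 weighted by length, against -19.1. No paired analysis was possible because each group has 1 list with no values per replicate, and no replicate could be left out for the same reason. Depth per sample is unknown, so a call missed for lack of reads and a lower level of H2Bub1 cannot be told apart.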
